A study of Camelina sativa with 159 samples.

Results

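Csa11g001440 and Csa11g001430 are neighbouring loci of chromosome 11 of Camelina sativa, an oilseed crop of the Brassicaceae with a hexaploid genome. The study's annotation placed the transcripts Csa11g001440.1 and Csa11g001430.2 under vacuolar acidification, and Csa11g001430.1 is the other transcript counted at the second locus. These 3 transcripts were taken by their identifiers from the 94495 gene models of the count table. They were chosen because their counts were low in accession CN 113660, so their values in that accession and its comparison with the others are described here without a test. Tests of the transcripts concern only the early accessions, which the choice did not compare.

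In plants, the inside of the vacuole is kept acidic by proton pumps of its membrane, the V-type ATPase and a pump driven by pyrophosphate. The proton gradient drives the uptake of ions, sugars and organic acids into the vacuole, and vacuoles take up most of the volume of a leaf cell. The protein made by each of the transcripts, their copies in the other subgenomes and the other genes of vacuolar acidification were not analysed here, since no annotation used here pairs these identifiers with a product.

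RNA was measured by sequencing in leaves of 48 accessions, lines of different genotype that received no treatment and were grown in a greenhouse under long days. Each accession had 2 to 6 libraries, 158 in all. The labels give each accession a flowering time (FT). The study describes FT as scored in field plots and not on the greenhouse plants sequenced, and its text gives CN 113660 a shorter FT than the label. By the labels, 44 accessions had an FT of 43 to 47.9 days, called early here. The 4 late accessions were CN 113662 at 52 days, CN 113692 at 55 days, CN 113691 at 59.4 days and CN 113660 at 61.9 days. With only these 4 late accessions, lateness and the rest of their genotype cannot be told apart, and in whole leaves fewer cells of a type and less RNA per cell cannot be told apart either. As a check of the tissue, Csa06g036860.1, named by the study as a chlorophyll a/b-binding protein of photosystem II, had 741.8 to 3004.9 CPM (counts per 1000000 counts) over the accessions, and 21 gene models had a higher median.

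Library totals ranged from 167 to 15246389 counts with a median of 4310559, and the 10 libraries under 200000 counts were used in the sums over an accession but not in values of single libraries, except where said. The other 148 are called the deeper libraries. The summed total of an accession was 4968195 to 30119735 counts, and that of CN 113660 was 15028670 from 3 libraries, so that 1 CPM stands for about 15 reads there. The codes of the libraries form series Cs, S001C and S0013, whose meaning is not stated, and all libraries of the late accessions are of series Cs. Library S001C2D, labelled as early accession CN 113672, stood apart from the other early libraries for all 3 transcripts. The libraries of the late accession CN 113662 differed among themselves, and Cs040 had the highest level of each transcript among them. The levels, their order and the relations between transcripts are also given without these libraries.

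Csa11g001440.1 was at 2.2 CPM in CN 113660 (32 counts, exact Poisson 95% interval 1.51 to 3.11). The other 47 accessions had 14.7 CPM at the lowest, in CN 113662, 27.7 at the median and 33.7 at the highest, in CN 113694, with a mean of 27.1 ± 3.26 (SD, n = 47). The groups did not overlap: the lowest of the other accessions was 6.69-fold higher than CN 113660, and their median was 12.6-fold higher (interval 8.9 to 18.4, counting error of CN 113660 only). Among the other late accessions, CN 113662 at 14.7 CPM lay below all early accessions, CN 113691 at 21.9 CPM above 1 of them and CN 113692 at 24.5 CPM above 5 of them. Without S001C2D the lowest early accession was at 23.2 CPM, so that CN 113691 too lay below all early accessions and CN 113692 above 4 of them.

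Csa11g001430.2, the annotated transcript of the neighbouring locus, was at 0.757 CPM in CN 113660 (11 counts, interval 0.378 to 1.35). The other 47 accessions had 6.57 CPM at the lowest, in CN 113692, 9.78 at the median and 12.2 at the highest, in CN 113726, with a mean of 9.63 ± 1.38 (SD, n = 47). Their median was 12.9-fold higher than CN 113660 (interval 7.22 to 25.9) and their lowest 8.68-fold higher. The fold of the median was 25.4 when library Cs038 of CN 113660 was left out, since 8 of the 11 counts came from it. CN 113692 at 6.57 CPM and CN 113662 at 6.74 CPM lay below all early accessions, and CN 113691 at 7.72 CPM above 3 of them, or 2 without S001C2D.

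Csa11g001430.1, the other transcript of that locus, was at 0.895 CPM in CN 113660 (13 counts, interval 0.476 to 1.53). The other 47 accessions had 2.52 CPM at the lowest, in CN 113662, 4.54 at the median and 6.8 at the highest, in CN 113724, with a mean of 4.47 ± 1.03 (SD, n = 47). Their median was 5.07-fold higher than CN 113660 (interval 2.97 to 9.52) and their lowest 2.81-fold higher. CN 113691 and CN 113692, at 3.71 and 3.78 CPM, lay above 9 and 10 early accessions, or 8 and 9 without S001C2D.

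**Figure D1:**
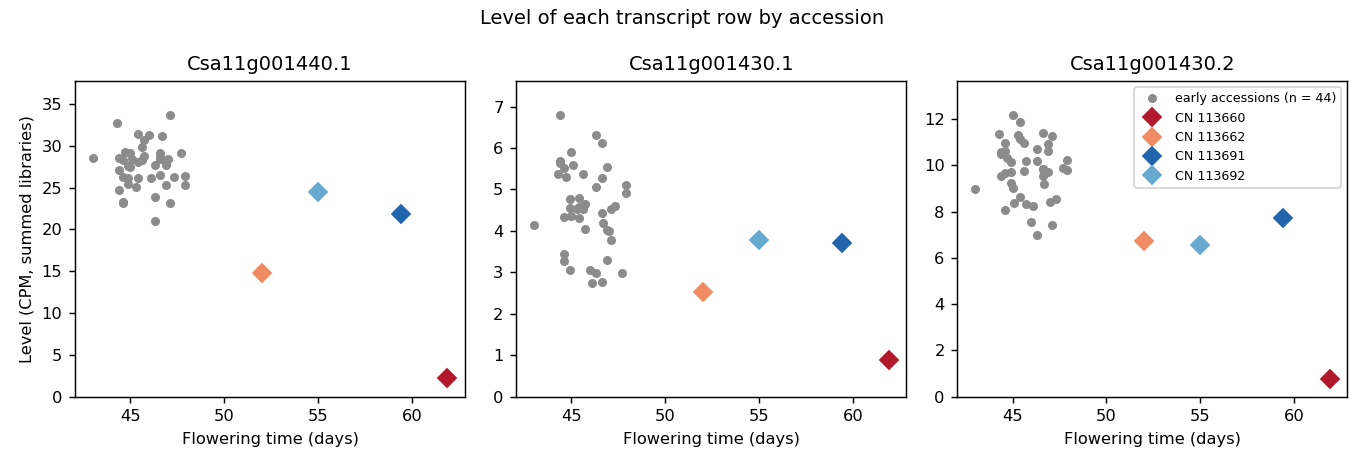
Level of each transcript in CPM of the summed libraries of an accession (y axes) against the labelled flowering time in days (x axes), with the 44 early accessions as circles and the late accessions as diamonds. CN 113660 sits at 2.2, 0.895 and 0.757 CPM in the panels for Csa11g001440.1, Csa11g001430.1 and Csa11g001430.2, below all other accessions, and CN 113662 sits below the early accessions in each panel.

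All 3 transcripts were thus below all other accessions in CN 113660. The same held for 5.63% of the 45776 gene models with a mean of at least 1 CPM. CN 113660 was at or under 20% of the median of the others for 1.32% of these models. A model with a median of 0 in the others and 0 counts in CN 113660 also meets this rule. The transcripts were at 7.96% (Csa11g001440.1), 19.7% (Csa11g001430.1) and 7.74% (Csa11g001430.2) of the median. In edgeR's fit of CN 113660 against the other accessions over 55583 gene models, 0.871% were called lower and 0.633% higher at a Benjamini-Hochberg adjusted p under 0.05. The log2 fold changes of the transcripts in it were -3.6 (SE 0.28) for Csa11g001440.1, -2.3 (SE 0.44) for Csa11g001430.1 and -3.65 (SE 0.32) for Csa11g001430.2, beside a median of -0.05 over all models. Nothing is read from these shares for the transcripts, since the choice used this contrast. Csa11g001440.1 and Csa11g001430.2 belong to the study's tan list, 164 co-expressed gene models that it chose on these samples, whose median log2 fold change in the same fit was -2.75, with 91 models called lower and 0 higher.

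In the order of levels, CN 113660 was separated from the next accession by 2.5 on the log2 scale for Csa11g001440.1, 1.11 for Csa11g001430.1 and 2.49 for Csa11g001430.2. The spread between libraries of 1 early accession was 0.222, 0.415 and 0.357 (pooled SD of log2, without S001C2D), or 0.373, 0.462 and 0.433 with S001C2D. Between the libraries of CN 113660 itself the SD was 0.62, 0.25 and 0.56. CN 113662, next in order for Csa11g001440.1, was a further 0.5 below the third accession, and its own libraries ranged from 8.22 to 29.5 CPM. All later neighbours in the order differed by at most 0.08 for Csa11g001440.1, and those from CN 113662 on by at most 0.11 for Csa11g001430.1. For Csa11g001430.2 neighbours from the third accession on differed by at most 0.08. The third and the highest accession differed by 0.67, 1.17 and 0.81 for Csa11g001440.1, Csa11g001430.1 and Csa11g001430.2. Without S001C2D and Cs040, CN 113660 was separated from the next accession, CN 113662 for each transcript, by 2.09, 1.05 and 2.37, and CN 113662 from the third by 0.96, 0.17 and 0.12. The third and the highest then differed by 0.61, 1.17 and 0.84. Both libraries were picked after their levels were seen, so the lower place of CN 113662 follows from that choice.

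In single libraries, Csa11g001440.1 was at 3.47, 1.93 and 1.19 CPM in Cs034, Cs038 and Cs050 of CN 113660. The same libraries had 0.695, 0.891 and 1.19 CPM of Csa11g001430.1 and 0.463, 1.19 and 0.298 CPM of Csa11g001430.2. The other 145 deeper libraries had 2.29, 27.7 and 36.9 CPM of Csa11g001440.1 as lowest, median and highest. They had 0.352, 4.43 and 11.4 CPM of Csa11g001430.1 and 0.88, 9.91 and 16.0 CPM of Csa11g001430.2. The libraries of CN 113660 were overlapped by 1 other library for each transcript, and it was S001C2D of CN 113672 each time. Without it the lowest of the others was 8.22 CPM for Csa11g001440.1 (Cs147 of CN 113662). For Csa11g001430.1 it was 1.21 CPM (Cs035 of CN 113662, 4 counts), barely above the 1.19 CPM of Cs050 of CN 113660, also from 4 counts. For Csa11g001430.2 it was 3.99 CPM (Cs143 of CAM 260, 2 counts in a total of 444464). All libraries of CN 113660 lay below all other deeper libraries for 0.12% of the gene models.

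S001C2D, with a total of 5632084 counts, had 2.29, 0.352 and 0.88 CPM of Csa11g001440.1, Csa11g001430.1 and Csa11g001430.2, from 13, 2 and 5 counts. The other libraries of CN 113672, whose labelled FT was 46.3 days, had 31.3 (Cs053), 22 (S001C1C) and 31.7 CPM (S001C24) of Csa11g001440.1. They had 11, 6.6 and 9.27 CPM of Csa11g001430.2 in the same order. Of the tan list without the transcripts described here, 28 of the 161 models with an early median of at least 1 CPM were at or under 20% of the early median in S001C2D, against a median of 1 and a highest of 20 in the other deeper early libraries and 93 to 104 in the libraries of CN 113660. Over all 45767 models with a mean of at least 1 CPM in the deeper libraries, 1.56% were at or under 20% of the median of the others in S001C2D. Under the stricter rule that all libraries of CN 113660 be this low, the share was 0.763%, with 120 models in both. These shares are unlike measures, and none is given here for another single library. Some of the 120, such as Csa10g007250.1, had a median of 0 in the others, so their 0 CPM in these libraries was no drop. Both shares hold such models too. The part of the label, the library or the plant in these values was not tested. With and without S001C2D, CN 113672 was at 21 and 29.3 CPM of Csa11g001440.1, 2.98 and 4.14 CPM of Csa11g001430.1, and 7.0 and 9.72 CPM of Csa11g001430.2.

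The libraries of CN 113662 also differed among themselves. Csa11g001440.1 was at 13 CPM in Cs035, 29.5 in Cs040 and 8.22 in Cs147, so that Cs040 was at 106% of the median of the other libraries and Cs147 at 29.6%. Csa11g001430.2 was at 4.55, 11 and 5.78 CPM and Csa11g001430.1 at 1.21, 3.76 and 2.59 CPM in the same order. Of the same 161 models of the tan list, 52 were at or under 20% of the early median in Cs035, 2 in Cs040 and 8 in Cs147, against 49 to 59 in the libraries of CN 113691 and 91 and 110 in those of CN 113692. The counts of Cs040 and Cs147 lay within those of the early libraries, which reached 20 without S001C2D, and that of Cs035 did not. The part of the labels in this was not tested. Cs040 was picked after its levels were seen, and as the highest library of CN 113662 its removal could only lower this accession. Without Cs040, CN 113662 was at 11 CPM of Csa11g001440.1, 2.38 of Csa11g001430.1 and 6.02 of Csa11g001430.2. It was then the lowest accession after CN 113660 for each. It was still 5-fold, 2.66-fold and 7.94-fold higher than CN 113660. In CN 113691 the libraries were closer together, at 7.96, 8.56 and 7.08 CPM of Csa11g001430.2 in Cs010, Cs019 and Cs030.

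**Figure D2:**
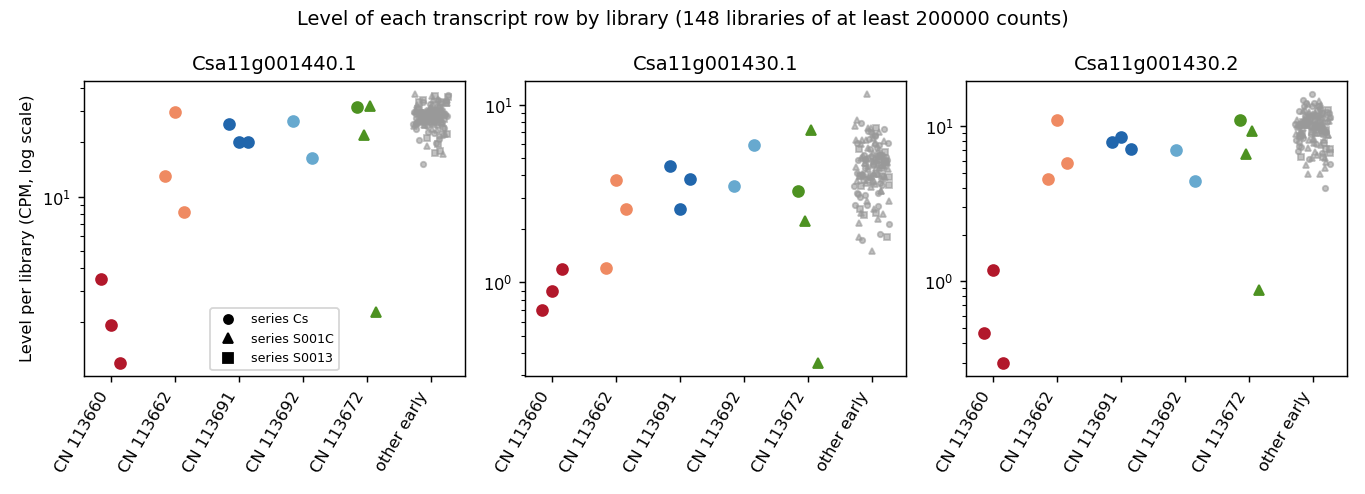
Level of each transcript in CPM, on a log scale, in each of the 148 deeper libraries, grouped by accession on the x axis, with point shapes for the series of library codes. The 3 libraries of CN 113660 lie lowest together with the single library S001C2D of CN 113672, while the remaining libraries of CN 113672 lie among the early libraries.

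The difference in CN 113660 was next compared with the genes on both sides. The identifiers of the 10 loci before and the 10 after the 3 transcripts hold 20 gene models, of which 15 had enough counts to be tested and 5 had at most 13 counts in total. None of the 15 was called in CN 113660 by the quasi-likelihood test of edgeR, adjusted over all models by Benjamini-Hochberg: 0 had an unadjusted p under 0.05, and DESeq2 called 0. Their log2 fold changes ran from -0.41 (Csa11g001470.1, SE 0.79, edgeR adjusted p = 0.86) to 0.64 (Csa11g001330.1, SE 0.78, edgeR adjusted p = 0.77) with a median of 0.03. All 15 lay within the range of the other 47 accessions. Since few models of the whole fit were called, the lack of calls among these 15 says little by itself.

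Csa11g001420.1, the model just before, was at 5.78 CPM in CN 113660 and at 4.29, 5.5 and 7.35 CPM as lowest, median and highest of the others (log2 fold change 0.07, SE 0.18, edgeR adjusted p = 0.91). Csa11g001450.1, just after, was at 24.1 CPM and at 15.8, 23.4 and 32.3 CPM in the others (log2 fold change 0.04, SE 0.22, edgeR adjusted p = 0.95). The low levels thus spanned Csa11g001430 and Csa11g001440 and were not seen in the tested models beside them. In S001C2D these neighbours were at 4.22 and 26.2 CPM. Both lay within the range of the deeper libraries of the other accessions, 1.81 to 9.96 CPM and 9.79 to 48.6 CPM.

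**Figure D3:**
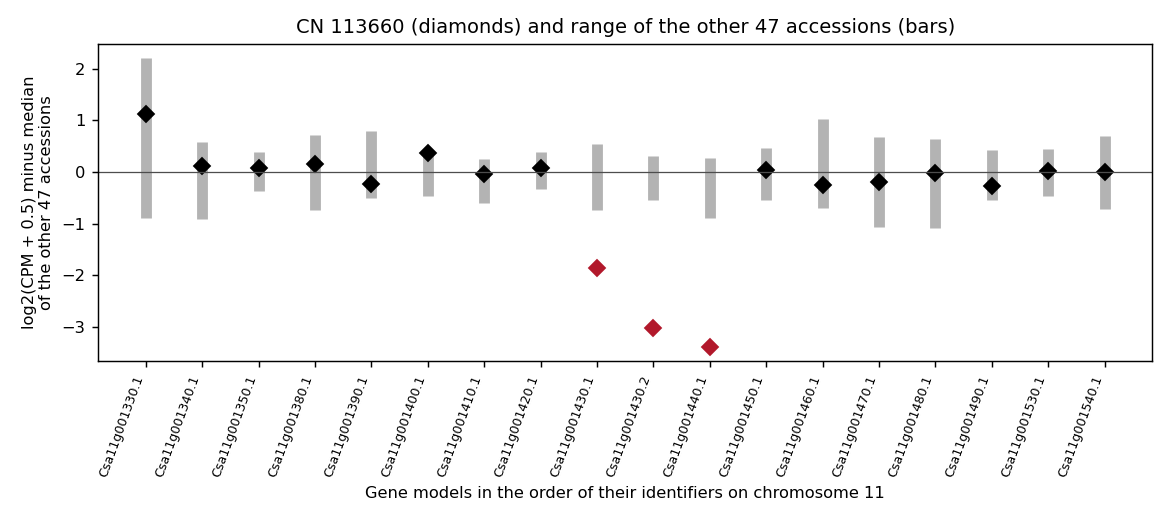
log2(CPM + 0.5) in CN 113660 minus the median of the other 47 accessions (diamonds, y axis) for the tested gene models in the order of their identifiers on chromosome 11 (x axis), with the range of the other 47 accessions as bars. The transcripts of Csa11g001430 and Csa11g001440, in red, lie at -1.85, -3.03 and -3.38, below their bars, and the 15 neighbours lie within theirs.

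At Csa11g001430 the balance of the transcripts was described by the share of Csa11g001430.1 in the reads of both. In CN 113660 it was 54.2%, 13 of 24 reads (exact Clopper-Pearson 95% interval 32.8 to 74.4). The other 47 accessions had 22.4% at the lowest, in CAM 223, 31.9% at the median and 41.6% at the highest, in CN 113724, with a mean of 31.5 ± 4.5% (SD, n = 47) from 52 to 446 reads. CN 113660 had the highest share, beside a pooled share of 31.9% in the others, and its interval overlapped those of 41 of the 47 others. Its libraries were at 60% (3 of 5 reads), 42.9% (6 of 14) and 80% (4 of 5). Among the others, the intervals of 39 of 47 held the pooled share. Of these transcripts only Csa11g001430.2 is in the tan list, and the choice rested on low counts in CN 113660, so nothing is read from its share. How reads common to both transcripts were counted is not stated, so the share concerns the counts assigned to each, and these intervals cover counting error only.

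**Figure D4:**
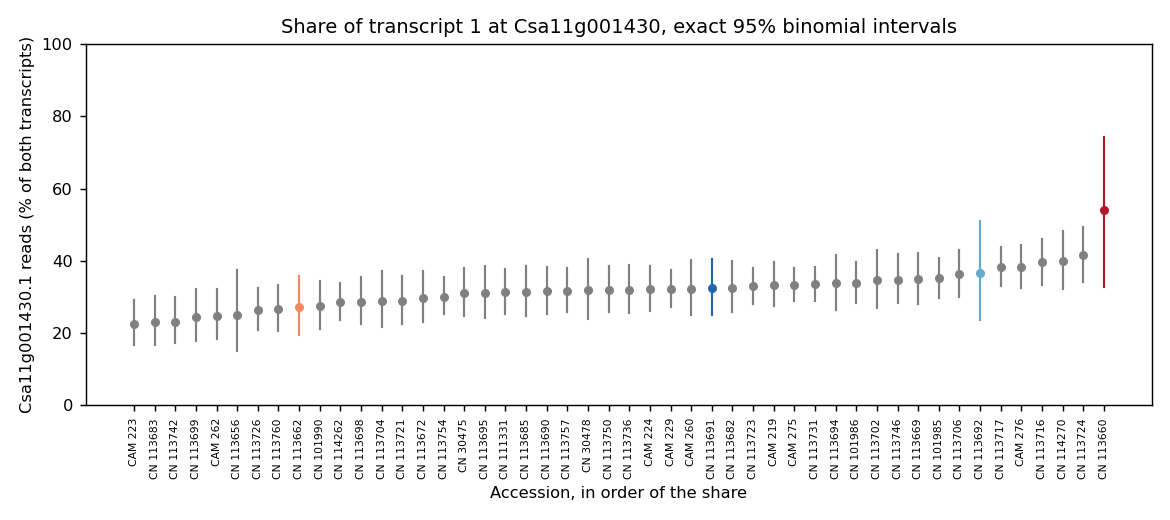
Share of Csa11g001430.1 in the reads of both transcripts of Csa11g001430 in percent (y axis) for each accession in order of the share (x axis), with exact 95% binomial intervals. CN 113660, at the right, has the highest share at 54.2% and the widest interval, 32.8 to 74.4%.

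The counts of Csa11g001440.1 were 1.33 times those of both Csa11g001430 transcripts in CN 113660 (32 and 24 counts, exact binomial 95% interval 0.761 to 2.37), and 1.45 (CN 113717), 1.89 and 3.01 times (CN 113694) as lowest, median and highest in the others. The ratio of CN 113660 was 3 in Cs034, 0.929 in Cs038 and 0.8 in Cs050, and 1.9 without Cs038, so that it could not be told apart from the median of the others at this depth. Lengths were not used, so this ratio compares accessions and not the loci. Across the 44 early accessions Pearson's r of log2(CPM + 0.5) was 0.03 between Csa11g001440.1 and Csa11g001430.1 and -0.06 between Csa11g001440.1 and Csa11g001430.2. It was 0.41 between the transcripts of Csa11g001430, which share a locus. Over all 48 accessions these r were 0.68, 0.89 and 0.74, and without CN 113660 they were 0.28, 0.29 and 0.49. Without S001C2D and Cs040 they were -0.1, -0.28 and 0.35 in the early accessions, 0.69, 0.88 and 0.75 over all 48, and 0.29, 0.35 and 0.48 without CN 113660. The SD between early accession means was 0.133, 0.312 and 0.179 on the log2 scale for Csa11g001440.1, Csa11g001430.1 and Csa11g001430.2 without S001C2D. The SD between libraries of 1 early accession was larger, at 0.222, 0.415 and 0.357. With so little spread between early accessions, a low r among them says little about whether the loci are related. The transcripts were counted in the same libraries, and the values are a description.

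**Figure D5:**
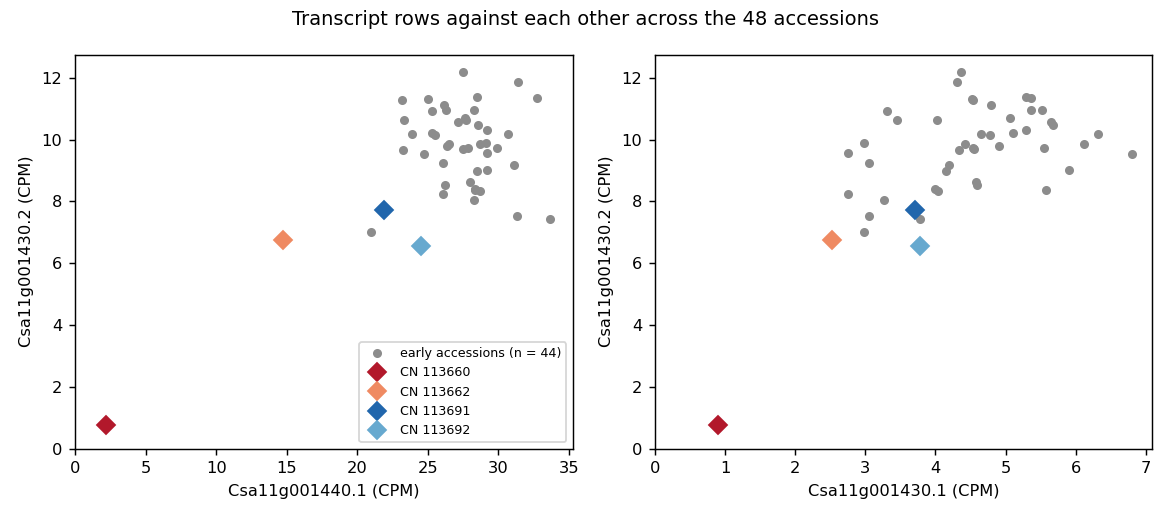
Level of Csa11g001430.2 in CPM (y axes) against Csa11g001440.1 (left) and Csa11g001430.1 (right) in CPM (x axes) across the 48 accessions. CN 113660 lies alone at the lower left, and the early accessions form a cloud with r of -0.06 on the left and 0.41 on the right.

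Within the early accessions, the relation to FT was tested with 100000 permutations, two-sided, for 4 values with adjustment over them. For Csa11g001440.1 Pearson's r was -0.02 (permutation p = 0.92, adjusted 0.92) and Spearman's rho 0.01 (permutation p = 0.96, adjusted 0.96). For Csa11g001430.1 r was -0.2 (permutation p = 0.2, adjusted 0.58) and rho -0.24 (permutation p = 0.12, adjusted 0.5). For Csa11g001430.2 r was -0.12 (permutation p = 0.44, adjusted 0.58) and rho -0.11 (permutation p = 0.48, adjusted 0.68). For the transcript share r was -0.14 (permutation p = 0.37, adjusted 0.58) and rho -0.1 (permutation p = 0.51, adjusted 0.68). Without CN 113690 and CAM 219, the farthest from the median FT, r was 0.05, -0.27, -0.2 and -0.18. Without S001C2D it was 0.03, -0.19, -0.1 and -0.14. Within series Cs (n = 34) r was -0.17, -0.15, -0.12 and -0.06, within S001C (n = 35) -0.01, -0.16, 0.12 and -0.24, and within S0013 (n = 10) 0.02, -0.18, -0.1 and -0.07. No relation with FT passed the threshold within these 44 accessions. For each transcript the early accession means spread less than libraries of 1 accession did, so these tests could miss a relation.

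Since all late libraries are of series Cs, the series were compared within the 30 early accessions with deeper libraries of both Cs and S001C, by a two-sided sign-flip permutation test adjusted over 4 values. The mean difference Cs minus S001C in log2(CPM + 0.5) was -0.04 for Csa11g001440.1 (SE 0.068, permutation p = 0.61, adjusted 0.61) and -0.05 for Csa11g001430.1 (SE 0.079, permutation p = 0.52, adjusted 0.61). For Csa11g001430.2 it was 0.16 (SE 0.1, permutation p = 0.12, adjusted 0.24). The transcript share was 29.3% in Cs and 32.9% in S001C, a difference of -3.68 points (SE 1.5, permutation p = 0.022, adjusted 0.088), with 12 of 30 accessions higher in Cs. With the shallow libraries included (n = 33) the difference was 0.49 for Csa11g001440.1 and 0.35 for Csa11g001430.1 (permutation adjusted p = 0.18 for both), turning the direction. It was 0.63 for Csa11g001430.2 (permutation adjusted p = 0.0078). Most of the shallow libraries, with totals of at most 123028 counts, are of series S001C. Series and depth are thus mixed in these differences, and the part of depth was not tested. Without S001C2D the differences between deeper libraries were -0.07, -0.08, 0.13 and -3.72 points (permutation adjusted p = 0.22, 0.31, 0.22 and 0.087). Only 38 of the 48 accessions had libraries of series Cs. With these libraries alone, CN 113660 differed from the median of the other accessions that had them. The log2 difference was -3.36 for Csa11g001440.1, -1.84 for Csa11g001430.1 and -3.05 for Csa11g001430.2. With all libraries of the 48 accessions it was -3.38, -1.85 and -3.03.

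The gene models most like the transcripts were found by Pearson's r of log2(CPM + 0.5) among 45776 models. Over the 48 accessions, the 5 highest for each transcript gave 7 models outside the loci described, and all 7 had CN 113660 below all other accessions. The low values of CN 113660, for which the transcripts were chosen, set most of these r, so the models are named as a description. Csa08g008040.1 (r = 0.90 with Csa11g001440.1) had 0 counts in CN 113660, which allows up to 0.207 CPM, and was at 4.04, 5.62 and 7.49 CPM as lowest, median and highest of the others. Csa14g013480.1 (r = 0.90 with Csa11g001440.1) was at 0.138 CPM and at 8.37, 13.5 and 18.5 CPM in the others. Csa07g002580.1 (r = 0.89 with Csa11g001440.1) was at 56.3 CPM and at 293, 583 and 718 CPM in the others. The next, Csa03g053250.1 (r = 0.87 with Csa11g001440.1) and Csa16g023000.1 (r = 0.87 with Csa11g001430.2), were at 11.5 and 6.75 CPM, beside medians of 89 and 29.4 CPM in the others. Of the 7 models, 4 belong to the tan list, which the study built by co-expression on these samples, and S001C2D was not at or below the highest library of CN 113660 for any of them. Without CN 113660, 15 other models ranked highest, with r of up to 0.72 (Csa12g012950.1 with Csa11g001440.1), and none of them was shared between transcripts or had CN 113660 below all others.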

How the data were processed

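The authors sequenced leaf RNA as paired-end reads and, per the submitters' notes, used Trimmomatic 0.32, STAR 2.7.10a and featureCounts 2.0.1. They deposited raw counts per gene model for each library. The strand setting and the handling of reads shared between transcripts or copies are not given in the sources used here, so values of overlapping models and near-identical copies are uncertain.

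Libraries were grouped by the labels, their counts summed per accession and scaled to CPM with TMM effective sizes. CN 113660 was compared with the other 47 accessions by edgeR 4.0.16 (quasi-likelihood test, filterByExpr, Benjamini-Hochberg) under R 4.3.3, which takes the spread from the 47. Log2 values of single models used CPM + 0.5. DESeq2 1.42.0 size factors and tests, other sets of libraries, a pseudocount of 1 and left-out libraries were alternatives. The study's methods speak of biological replicates, while the labels do not say which libraries came from separate plants. Of 159 pairs of libraries of 1 accession, 0 were identical, and none were merged. The lowest chi-square per gene was 1.46, in a pair with a library of 504269 counts. This value does not show whether libraries came from separate plants. Named genes were the 3 transcripts, the models of 10 loci on either side and the 5 models of highest r with each transcript. Csa06g036860.1 was added after its values were seen. The transcripts and lists were chosen with earlier results of these data known. The single library of Licalla, which has no labelled FT, was left out of comparisons, and sequences and coordinates were not used here.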

Additional observations from a re-analysis of the deposited data

Results flagged for a closer look

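The highest of the 5 deeper libraries of CN 113754 for Csa11g001430.1, at 11.4 CPM, lay far from the other 4. This library, S001C32, held 7 counts of the transcript in a total of 504269. For Csa11g001430.2 the lowest of the 4 late accessions, CN 113660 at 0.757 CPM, lay far from the other 3, which is the difference these transcripts were chosen for. These were 2 of 18 groups examined, by an outlier rule whose nominal chance rate is about 1 in 20, which was not measured here. The single library of Licalla, which entered no comparison, held 203, 40 and 84 counts of Csa11g001440.1, Csa11g001430.1 and Csa11g001430.2 in a total of 8286624, or 24.5, 4.83 and 10.1 CPM of the raw total.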

How the results depend on the processing

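The number of models called in CN 113660, 484 lower and 352 higher, was 838 lower with DESeq2, 169 lower and 75 higher with series Cs alone, and 903 lower and 646 higher against the early accessions alone. Leaving out each library of CN 113660 gave 449 to 685 lower and 293 to 546 higher, the last without Cs050. The same left-out libraries gave a log2 difference of -3.69 to -3.21 for Csa11g001440.1 (-3.38 with all), -1.95 to -1.76 for Csa11g001430.1 and -3.54 to -2.88 for Csa11g001430.2, and a transcript share of 47.4% to 70%. They gave -0.1 to 0.17 for Csa11g001420.1 and -0.04 to 0.16 for Csa11g001450.1. The r of Csa11g001440.1 with FT, near 0, became 0.03 in deeper libraries, 0.02 with DESeq2 size factors, 0.05 without the 2 farthest accessions, 0.02 in series S0013 and 0.03 without S001C2D, and that of Csa11g001430.2 0.12 in series S001C. With the shallow libraries included, Cs minus S001C was 0.49 for Csa11g001440.1, 0.35 for Csa11g001430.1 and 0.63 for Csa11g001430.2 (permutation adjusted p = 0.0078). Most of these shallow libraries are of series S001C. Series Cs alone held 38 of the 48 accessions. The cause of these changes was not tested. Leaving out S001C2D or Cs040 was chosen after seeing the data. With either left out the log2 differences of Csa11g001440.1, Csa11g001430.1 and Csa11g001430.2 were -3.38, -1.85 and -3.04 to -3.03. Either library belongs to a single accession among the others, so their median could hardly move. No paired analysis was possible because accessions share no labelled replicate numbers, and only the series were paired, by accession. CN 113660 is 1 accession with 24 reads at Csa11g001430, which limits the share.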
